A study of Rattus norvegicus with 36 samples.

Results

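The 10 genes described here belong to type 2 immunity and to the chitinase and chitinase-like family: the cytokines Il4 and Il13, the receptor genes Il4r, Il13ra1, Il13ra2, and Il1rl1, the chitinase family genes Chi3l1, Chit1, and Chia, and Retnla. They were chosen by name, as all probes other than controls whose gene name in the array files is 1 of these symbols, which gave 10 of 25597 gene names and 14 of 45598 probes. Expression was measured in the accessory lobe of the lung of female Sprague Dawley rats aged 13 weeks at exposure. DQ-12 rats received 10 mg of DQ-12, a crystalline silica dust, per rat in saline by intratracheal instillation, and vehicle rats received saline alone. Groups of 6 rats were examined 1, 30, and 180 days later (D1, D30, and D180), with 1 Agilent single-color array per rat and 36 arrays in all. Per the methods of the study, the dust had been reground and carried traces of tungsten and cobalt from that step. All values below are normalized log2 signals, so that a difference of 1 is a 2-fold change. All tests between groups were made with limma on all 36 arrays, with Benjamini–Hochberg adjustment over 23940 genes. A gene was called where the fold change (FC) was at least 2 and the adjusted p was under 0.05.

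Interleukin 4 and interleukin 13 are the cytokines that define a type 2 response. They signal through receptors that share the chain encoded by Il4r, paired with the common gamma chain or with the chain encoded by Il13ra1, and the signal is carried by the transcription factor STAT6. The product of Il13ra2 binds interleukin 13 and is known as a decoy, and Il1rl1 encodes ST2, the receptor for interleukin 33. The enzymes encoded by Chia (acidic mammalian chitinase) and Chit1 (chitotriosidase) cleave chitin, whereas the product of Chi3l1 binds chitin without cleaving it. Retnla encodes a small secreted protein of the resistin family that is widely used as a marker of alternatively activated macrophages. In the lung, chitinase family genes are known from both macrophages and epithelium.

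The sequences that carry the results are those of the probes for the chitinase family genes and for Retnla, since each of these genes was read by a single probe. They are 60-base oligonucleotides, shown 5′ to 3′, with rn4 coordinates from the array files, and no bases are marked.
Chi3l1 (chr13:47146100-47146159, plus strand): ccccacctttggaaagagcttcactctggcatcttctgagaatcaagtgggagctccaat
Chit1 (chr13:47108338-47108397, plus strand): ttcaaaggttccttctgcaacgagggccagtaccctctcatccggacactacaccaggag
Chia (chr2:201431620-201431679, plus strand): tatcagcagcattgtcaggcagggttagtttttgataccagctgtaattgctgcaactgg
Retnla (chr11:53206606-53206665, minus strand): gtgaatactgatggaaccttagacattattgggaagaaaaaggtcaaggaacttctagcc
Il4, Il13, and Il4r also had 1 probe each, Il13ra1 and Il13ra2 had 2, and Il1rl1 had 3. All 10 genes and all 14 probes passed the filter on dim probes. The array files place both Il13ra1 probes on chromosome 11 of rn4, whereas the RefSeq gene table of GRCr8 lists Il13ra1 on chromosome X. The values of Il13ra1 are therefore uncertain as to their locus.

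The tissue label was checked against 10 markers of lung epithelium, which were all well above background in every group. Among them Sftpc, the surfactant protein C gene of alveolar type 2 cells, had group means of 18.38 to 18.42. Its SD was 0 in every group but DQ-12 at D180 (0.09). Quantile normalization gives the brightest probes set values by rank, so that this level shows presence but cannot show a change. On each array 51.4 to 75.5% of probes were well above background, no spot was saturated, and replicate arrays correlated with a median r of 0.973 to 0.981 per group. At D1, the 6 DQ-12 arrays shared their scan date with 1 vehicle array, and the 5 other vehicle arrays had dates of their own. Vehicle and DQ-12 arrays shared both dates of D30, and at D180, 2 of 6 dates did, with 4 arrays of each group. In bulk tissue, fewer cells of a type and less RNA per cell cannot be told apart, and the same holds for more of either.

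At D1, 2 of the 10 genes were called, Chi3l1 and Retnla, both higher after DQ-12, compared with 3.07% of all genes tested. At D30 and D180, 3 of the 10 were called, Chi3l1, Chia, and Retnla, all higher, compared with 1.05% and 3.63% of all genes. The changes of these 3 genes ran from 1.89 to 3.91 on the log2 scale where called. By adjusted p alone, 3 of the 10 were higher at D1, 3 at D30, and 3 at D180, with Chit1 lower at D180. By this rule 16.2%, 3.98%, and 16.8% of all genes passed. The 10 genes had a median log2 FC of 0.10, 0.03, and 0.10 at the 3 time points, beside -0.01, -0.02, and -0.03 over all genes. Neither of the cytokine genes and none of the 4 receptor genes was called at any time point, and with the threshold of adjusted p alone the same held. The unadjusted p was under 0.05 for Il13ra1 at D1 (0.0139) and for Il4r at D30 (0.0414) among these 6 genes.

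**Figure D1:**
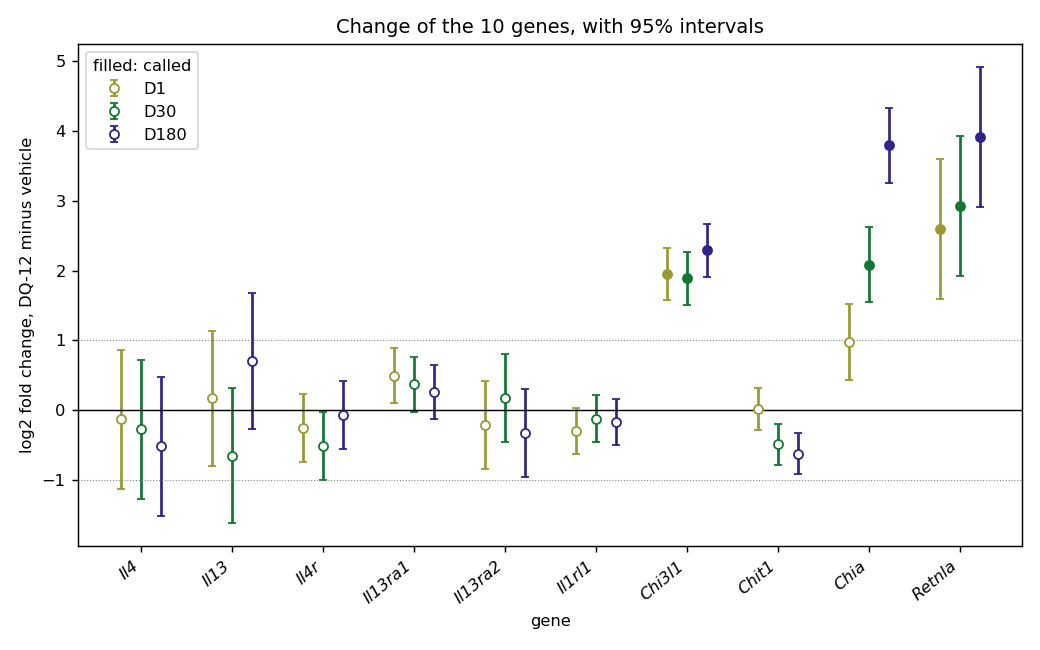
Log2 fold change of DQ-12 over vehicle (y axis) for each of the 10 genes (x axis) at D1, D30, and D180, with 95% intervals from limma. Filled points are called, and dotted lines mark a 2-fold change. The point of Chia stood at 0.97 at D1 and at 3.79 at D180, that of Chi3l1 lay between 1.89 and 2.29, and the cytokine and receptor genes stayed within 0.71 of 0.

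Among the chitinase family genes, Chi3l1 was higher in DQ-12 rats at all 3 time points by a similar amount. At D1 its signal ran from 9.58 to 10.11 in vehicle rats (median 9.72) and from 11.55 to 12.10 in DQ-12 rats (median 11.70). At D30 the ranges were 8.25 to 9.54 (median 9.11) and 10.61 to 11.50 (median 10.89). At D180 they were 9.37 to 10.01 (median 9.59) and 11.54 to 12.46 (median 11.88). The groups did not overlap at any time point, and every DQ-12 rat exceeded every vehicle rat. Of the 10 genes, 4 had separate groups with DQ-12 above at D1, 3 at D30, and 3 at D180, where 1 more had DQ-12 below, beside 11.2%, 2.36%, and 7.31% of all genes in either direction. The log2 FC was 1.95 ± 0.19 (SE, n = 6 and 6) at D1, 1.89 ± 0.19 at D30, and 2.29 ± 0.19 at D180, which are 3.86-, 3.70-, and 4.89-fold increases. The adjusted p in limma was 2.98e-09, 2.43e-08, and 7.50e-11. The change did not differ between time points by test, with differences of -0.06 between D1 and D30 (adjusted p = 0.949 in limma) and 0.34 between D1 and D180 (adjusted p = 0.516). Within the arrays that shared a scan date, the log2 FC of Chi3l1 was 1.68 at D1, 2.20 and 2.26 at D30, and 2.21 and 2.34 at D180. It was called in each of the 13 alternative settings, with values of 1.68 to 2.32, and with each rat left out.

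Chia was the gene whose change grew over time. In vehicle rats its signal ran from 13.70 to 15.00 at D1 (median 14.67), from 12.73 to 14.12 at D30 (median 13.86), and from 12.77 to 13.76 at D180 (median 13.29). In DQ-12 rats it ran from 15.14 to 15.84 at D1 (median 15.54), from 15.20 to 16.44 at D30 (median 15.75), and from 15.98 to 17.88 at D180 (median 17.26). The groups were separate at each time point, and the DQ-12 rats of D180 overlapped those of D30 between 15.98 and 16.44. The order of the 6 groups by mean, from low to high, was vehicle at D180, D30, and D1, then DQ-12 at D1, D30, and D180. In that order the vehicle groups overlapped their neighbours in range, as did the DQ-12 groups.
The log2 FC of Chia was 0.97 ± 0.27 (SE, n = 6 and 6) at D1, just under the 2-fold threshold, with an adjusted p of 0.0102 in limma. It was 2.09 ± 0.27 at D30 (4.24-fold, adjusted p = 3.25e-06) and 3.79 ± 0.27 at D180 (13.8-fold, adjusted p = 4.50e-12). The change was larger at D180 than at D1 by 2.81 on the log2 scale (adjusted p = 2.70e-05 in limma), and larger at D180 than at D30 by 1.70 (adjusted p = 0.0391). Chia was the single member called in each of these tests, beside 1.55% and 0.138% of all genes. The difference between D1 and D30 was 1.11 (adjusted p = 0.117), where 0 of the 10 genes and 0.944% of all genes were called.
The larger change at D180 than at D30 was not stable to the choice of rats: with 1 rat left out at a time it ran from 1.54 to 1.92, and the call was lost in 14 of 24 cases (without vehicle replicate 1, 2, or 5 or DQ-12 replicate 1, 2, 3, or 4 of D30, or vehicle replicate 1, 3, or 6 or DQ-12 replicate 1, 2, 4, or 5 of D180). The difference from D1 kept its call in all 24 cases (2.65 to 3.03). With scan date as a fixed block the differences were 1.98 and 2.06, and neither was called (adjusted p = 0.0876 and 0.0941). At D1, Chia differed by 1.84 from the 1 vehicle array on the scan date of the DQ-12 arrays, and this array had the lowest Chia signal of the 6. Within scan dates the change was 2.21 and 1.77 at D30 and 3.98 and 3.68 at D180.

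**Figure D2:**
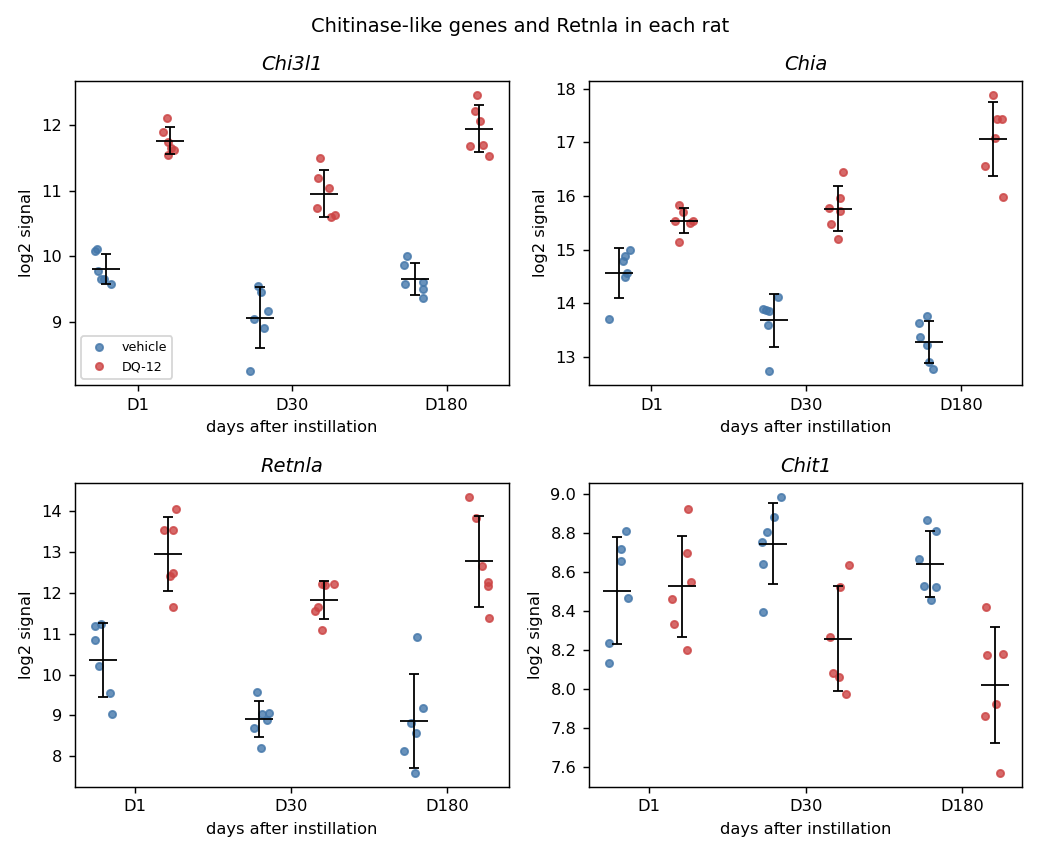
Normalized log2 signal (y axis) of Chi3l1, Chia, Retnla, and Chit1 in each rat, by day after instillation (x axis), with vehicle in blue and DQ-12 in red. Bars give the mean and SD of 6 rats. The DQ-12 rats lie above the vehicle rats throughout for Chi3l1, Chia, and Retnla, and below them at D180 for Chit1, where the DQ-12 rats reach 8.42 and the vehicle rats start at 8.46.

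Chit1 took the opposite direction. At D1 its signal ran from 8.14 to 8.81 in vehicle rats (median 8.56) and from 8.20 to 8.92 in DQ-12 rats (median 8.51), with a log2 FC of 0.02. At D30 it ran from 8.39 to 8.99 (median 8.78) and from 7.98 to 8.64 (median 8.18), with a log2 FC of -0.49 and an adjusted p of 0.0521 in limma. At D180 the vehicle rats had 8.46 to 8.87 (median 8.60) and the DQ-12 rats 7.57 to 8.42 (median 8.05), so that the groups did not overlap. Chit1 fell by 0.62 ± 0.15 (SE, n = 6 and 6) on the log2 scale at D180, a 1.54-fold decrease with an adjusted p of 0.00226, which passed the test but not the 2-fold threshold. The change did not differ between D1 and D180 by test (difference -0.64, adjusted p = 0.0652). Within shared scan dates the D180 change was -0.61 and -0.81, and with slide as a fixed block it was -0.35 (adjusted p = 0.746), a fit that rests on 1 array of each group. Chia and Chit1, both encoding active chitinases, thus had changes of 3.79 and -0.62 at the same time point.

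Retnla was higher in DQ-12 rats at all 3 time points, with the largest SE of those of the 10 genes that were called. Its signal ran from 9.04 to 11.25 in vehicle rats (median 10.54) and from 11.66 to 14.07 in DQ-12 rats (median 13.01) at D1. At D30 it ran from 8.20 to 9.57 (median 8.97) and from 11.11 to 12.22 (median 11.93). At D180 it ran from 7.59 to 10.92 (median 8.69) and from 11.38 to 14.36 (median 12.47). The groups did not overlap, but the gap was narrow at D1 (11.25 to 11.66) and at D180 (10.92 to 11.38), where 1 vehicle rat reached 10.92. The log2 FC was 2.60 ± 0.49 (SE, n = 6 and 6) at D1, 2.92 ± 0.49 at D30, and 3.91 ± 0.49 at D180, or 6.05-, 7.56-, and 15.1-fold. The adjusted p in limma was 0.000314, 0.000265, and 4.71e-07, and the change did not differ between D1 and D180 by test (difference 1.31, adjusted p = 0.304). At D1, the rise lost its call with scan date as a fixed block (1.71, adjusted p = 0.453) and with slide as a fixed block (1.69, adjusted p = 0.261). In both fits the comparison passes through 1 vehicle array, which had the highest Retnla signal of its group. At D180 the slide block gave 1.35 (adjusted p = 0.611), through the vehicle rat with 10.92 and 1 DQ-12 array, whereas within scan dates the change was 3.35 and 5.78.

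The cytokine genes were close to the background of the array. Il4 was well above background on 6 of 36 arrays, 1 in each group. Its signal at D180 ran from 3.00 to 3.83 in vehicle rats (median 3.72) and from 2.02 to 4.62 in DQ-12 rats (median 3.07). The log2 FC of Il4 was -0.13, -0.27, and -0.52 at D1, D30, and D180, and the 95% interval at D180 reached from -1.51 to 0.48. Il13 was well above background on 14 of 36 arrays. At D180, these were 1 vehicle and 4 DQ-12 arrays, with signals of 3.03 to 4.31 in vehicle rats (median 4.06) and 3.11 to 5.48 in DQ-12 rats (median 4.79). The groups overlapped, although 4 of 6 DQ-12 rats exceeded every vehicle rat. The log2 FC of Il13 was 0.17, -0.65, and 0.71, with an interval of -0.26 to 1.67 and an adjusted p of 0.364 in limma at D180. These intervals include changes larger than 2-fold for Il4 at D1, D30, and D180 and for Il13 at D1, D30, and D180, so that changes of that size were not resolved at this signal.

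The receptor genes were measured at higher signals, apart from Il13ra2 and 2 of the 3 probes of Il1rl1. Il4r ran from 8.89 to 10.30 in vehicle rats (median 10.07) and from 8.71 to 9.76 in DQ-12 rats (median 9.27) at D30, with a log2 FC of -0.51 (adjusted p = 0.288 in limma). At D1 and D180 its log2 FC was -0.25 and -0.07, and the groups overlapped at each time point. Il13ra1 ran from 9.93 to 10.53 in vehicle rats (median 10.21) and from 10.55 to 10.81 in DQ-12 rats (median 10.74) at D1. The groups did not overlap at D1, and the log2 FC was 0.50 (adjusted p = 0.0723), followed by 0.37 at D30 and 0.26 at D180, where the groups overlapped. Over the 13 alternative settings the adjusted p of Il13ra1 at D1 ran from 0.00641 to 0.798, with no call. The second Il13ra1 probe gave 0.36, 0.45, and 0.19, so that both probes had the same sign. Il13ra2 had mean signals of 4.59 to 5.41 and a log2 FC of -0.21, 0.18, and -0.33. Its other probe was dimmer and gave 0.04, 0.15, and -0.68, the last with no DQ-12 array well above background.
Il1rl1 ran from 10.21 to 10.96 in vehicle rats (median 10.59) and from 9.93 to 10.72 in DQ-12 rats (median 10.31) at D1, with a log2 FC of -0.29 (adjusted p = 0.237 in limma). At D30 and D180 the log2 FC was -0.12 and -0.16, with intervals of -0.45 to 0.21 and -0.49 to 0.17. The probes of Il1rl1 disagreed in level, since the other 2 had mean signals between 3.89 and 4.99, and they gave log2 FC values of -0.25 to 0.24 without a call. These 2 were well above background on 17 and 26 of 36 arrays. Which of the probes reflects the level of Il1rl1 was not tested, so that the values of the bright probe may not stand for the gene. Read by their brightest probes, Il4r, Il13ra1, Il13ra2, and Il1rl1 had 95% intervals that left out 2-fold changes at all 3 time points. The intervals of the dimmer Il13ra2 probe included 2-fold changes, reaching from -0.73 to 1.03 at D30 and from -1.56 to 0.20 at D180.

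**Figure D3:**
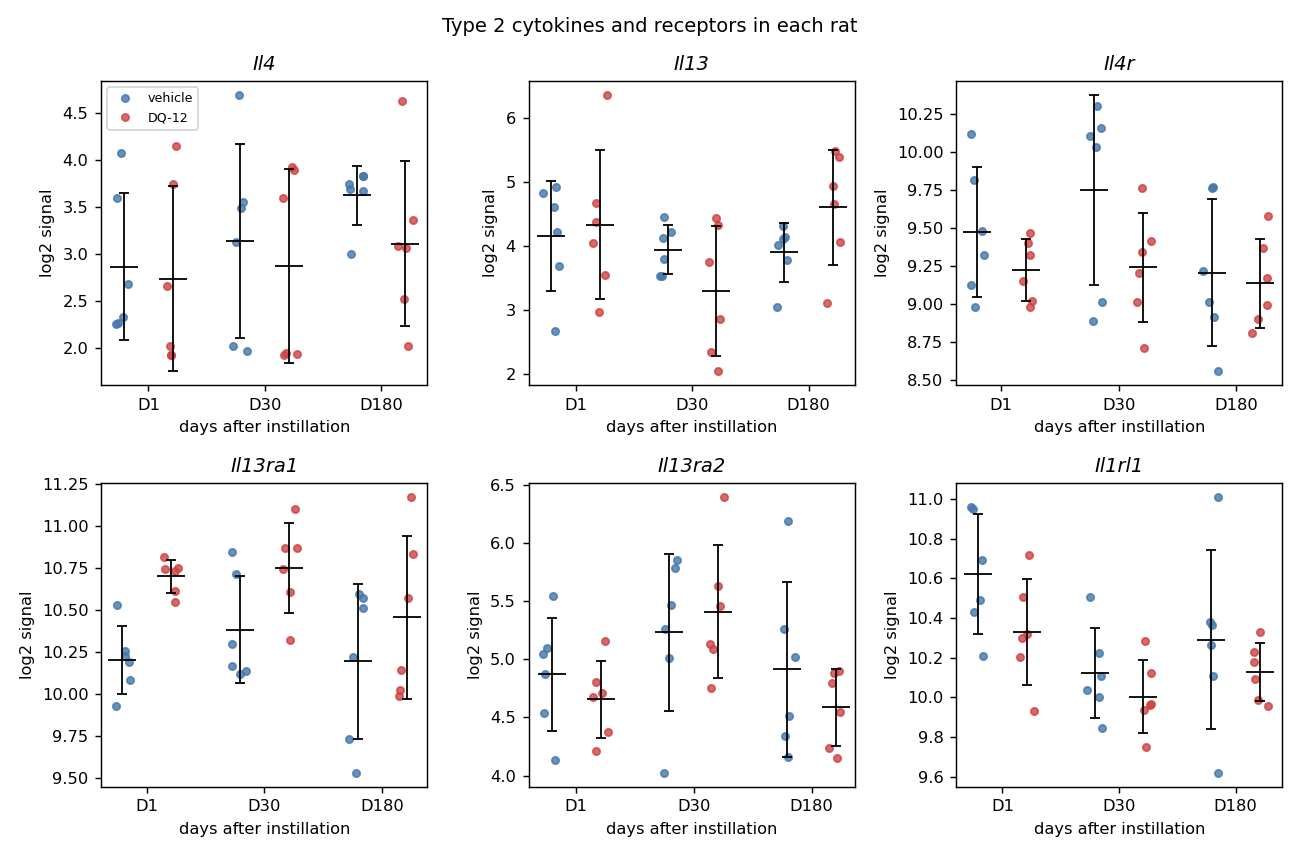
Normalized log2 signal (y axis) of the cytokine and receptor genes in each rat, by day after instillation (x axis), with vehicle in blue and DQ-12 in red. Bars give the mean and SD of 6 rats. The groups overlap in every panel except for Il13ra1 at D1, where vehicle rats reach 10.53 and DQ-12 rats start at 10.55.

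The 3 genes that rose were correlated over the arrays. Over the 36 arrays the Pearson r was 0.844 for Chi3l1 and Retnla, 0.831 for Chi3l1 and Chia, and 0.823 for Chia and Retnla. The points share the difference between vehicle and DQ-12, so that these values describe the arrays as a whole. The r of Chit1 was -0.496 with Chi3l1, -0.614 with Chia, and -0.679 with Retnla, and that of Il13 with the 3 genes was 0.163, 0.144, and 0.191. By the same measure, the genes most like Chi3l1 were Ncf4 (0.945), Fetub (0.938), and Mmp12 (0.933), of which Ncf4 encodes a subunit of the phagocyte NADPH oxidase and Mmp12 the macrophage elastase. Those most like Chia were RGD1559482 (0.910), Ly6i (0.906), and Capg (0.902), which encodes an actin-capping protein of macrophages. Those most like Retnla were Kng2l1 (0.909), Kng1 (0.900), and Kng2 (0.897), which encode kininogens, a group of close relatives whose signals cannot be told apart by name alone.

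The promoters of the 3 genes that moved together are shown from 250 bases before to 50 after the start site given in the RefSeq promoter table (GRCr8). For Chi3l1 and Chia this site is the outer start of the gene in the RefSeq gene table, whereas for Retnla it lies 298 bases inside the gene, so that the whole Retnla window, with its match, is downstream of the outer start. Capitals mark a match to the AP-1-type motif TGANTCA.
Chi3l1 (chr13:48193589-48193888, plus strand): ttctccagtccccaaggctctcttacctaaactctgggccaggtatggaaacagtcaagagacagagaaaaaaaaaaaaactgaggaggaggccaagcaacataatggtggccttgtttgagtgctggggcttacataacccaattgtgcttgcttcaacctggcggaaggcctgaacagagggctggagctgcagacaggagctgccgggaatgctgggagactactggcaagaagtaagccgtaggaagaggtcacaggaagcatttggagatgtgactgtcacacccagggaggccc
Chia (chr2:196302437-196302736, plus strand): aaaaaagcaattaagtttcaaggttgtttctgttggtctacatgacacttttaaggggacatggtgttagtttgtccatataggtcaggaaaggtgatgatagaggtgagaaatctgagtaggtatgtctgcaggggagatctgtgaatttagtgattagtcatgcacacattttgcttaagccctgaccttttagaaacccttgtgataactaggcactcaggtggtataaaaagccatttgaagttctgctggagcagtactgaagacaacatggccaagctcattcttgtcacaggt
Retnla (chr11:65426137-65426436, minus strand): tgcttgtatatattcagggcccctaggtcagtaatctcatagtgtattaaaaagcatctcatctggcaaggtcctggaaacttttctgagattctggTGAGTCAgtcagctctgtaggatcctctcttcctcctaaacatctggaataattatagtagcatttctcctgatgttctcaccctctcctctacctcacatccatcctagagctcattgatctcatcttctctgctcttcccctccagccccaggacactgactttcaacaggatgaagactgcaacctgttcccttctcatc
Each motif searched reads the same on both strands. The STAT6-type motif TTCNNNNGAA was in none of these 3 windows and was in those of Il4 and Il1rl1, beside 7.28% of 33469 RefSeq promoters. The shorter STAT-type motif TTCNNNGAA was in none of the 8 windows available for the 10 genes, beside 8.87% of all. The start site lay inside the listed gene for 4 of these 8 windows, those of Il4r, Il13ra1, Il1rl1, and Retnla. The AP-1-type motif was in the windows of Retnla and Chit1, beside 7.33% of all. Promoters of Il13 and Il13ra2 were not used here.

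Of 9 other type 2 cytokines and alarmins, 8 were tested. At D1, 2 were called higher, and at D30 none was, whereas at D180, 2 were called lower. Over all genes tested, 3.07%, 1.05%, and 3.63% were called at D1, D30, and D180, in either direction. The 8 genes had a median log2 FC of 0.15, -0.02, and -0.27. Areg, encoding the growth factor amphiregulin, rose at D1 from a mean of 9.16 to 10.80 (log2 FC 1.64 ± 0.32 (SE, n = 6 and 6), adjusted p = 0.000372 in limma), and its groups did not overlap. Il31 was called higher at D1 (1.48, adjusted p = 0.0490), a call that was kept in 3 of 13 other settings and with 4 of 12 rats left out. Il5, the cytokine of eosinophil growth and survival, was called lower at D180, from 5.60 to 3.86 (-1.74 ± 0.54, adjusted p = 0.0213). It was well above background on 5 vehicle and 3 DQ-12 arrays, and its groups overlapped. The call was kept in 8 of 13 other settings, whose values ran from -1.74 to 0.12. It was lost without vehicle replicate 1 or 5 or DQ-12 replicate 4 or 5, with values of -2.01 to -1.40 over the rats left out. Il25, an alarmin of epithelial tuft cells, was called lower at D180 (adjusted p = 0.00896). No DQ-12 array was well above background for Il25 at D180, so that, with this processing, it was at least 1.68-fold lower, a bound taken against the dimmest signals well above background. The call of Il25 was kept in 9 of 12 other settings, whose log2 FC values ran from -2.32 to -0.23. Il33, encoding the alarmin that binds ST2, had mean signals of 12.50 to 13.02 and passed the adjusted p alone at D180 with -0.43 (adjusted p = 0.00494), below 2-fold, after 0.14 at D1 and -0.34 at D30.

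Of 20 other receptor and signalling genes, 19 were tested. At D1, 1 was called higher, at D30 none was called, and at D180, 1 was called higher, with a median log2 FC of 0.16, 0.02, and 0.33. These counts are near the share over all genes, which was 3.07%, 1.05%, and 3.63%. Jak3, encoding the kinase bound to the common gamma chain, had a log2 FC of 0.44, 0.66, and 1.11, with separate groups at each time point, and was called at D180 (adjusted p = 1.01e-06 in limma). Without DQ-12 replicate 2 it had 1.00, just under the threshold. Socs1, which encodes a feedback inhibitor of cytokine signalling, was called at D1 (1.18, adjusted p = 0.0350) in 6 of 13 other settings as well, and with 6 of 12 rats left out. Stat6 and Gata3, the latter a transcription factor of type 2 lymphocytes, were not called, with a log2 FC of -0.18, -0.10, and -0.05 and of 0.19, -0.04, and -0.15, respectively. The value of Stat6 at D180 rests on 5 vehicle and 6 DQ-12 arrays.

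Of 26 effector genes of type 2 responses, 25 were tested, and 4, 5, and 6 were called higher at D1, D30, and D180, with 1 called lower at each. The share called over all genes, in either direction, was 3.07%, 1.05%, and 3.63%. The median log2 FC of the 25 effector genes was 0.25, 0.15, and 0.23. The chemokine genes Ccl17 and Ccl22, whose products attract cells that carry CCR4, were higher at each time point without overlap of the groups. Ccl17 had a log2 FC of 1.87, 2.50, and 2.76 (adjusted p = 1.64e-05, 4.37e-07, and 1.29e-08 in limma), and Ccl22 had 1.58, 1.59, and 1.76. Retnlb, a close relative of Retnla, was dim, with mean signals of 2.41 to 3.09 in vehicle rats and 5.23 to 5.81 in DQ-12 rats. At D1 its log2 FC was 2.71 (adjusted p = 0.000511), with 2 of 6 vehicle and 5 of 6 DQ-12 arrays well above background, so that the size of this change is uncertain. No vehicle array was well above background at D30 or D180, so that, with this processing, Retnlb was at least 2.64-fold and at least 3.54-fold higher, respectively. The calls of Retnlb at D1, D30, and D180 were kept in 9, 9, and 10 of 12 other settings. Its log2 FC went as low as 0.82, 0.50, and 0.73 in these settings. Whether the probes of Retnla and Retnlb share signal was not tested.
Arg1, encoding arginase 1, was called at D30 (1.70, adjusted p = 1.44e-06 in limma) and at D180 (1.30, adjusted p = 2.17e-05), after 0.56 at D1. Il1rn, encoding the interleukin 1 receptor antagonist, was called at D30 (1.13) and D180 (2.57, adjusted p = 2.85e-13), with 0.98 at D1. Cd200r1, encoding an inhibitory receptor of myeloid cells, was called at D180 (1.42, adjusted p = 0.00113). The gene called lower at each time point, named after its values were seen, was Alox15, which encodes a lipoxygenase of eosinophils and macrophages. Alox15 had a log2 FC of -1.06, -1.22, and -1.14 (adjusted p = 0.00465, 0.00403, and 0.00183). At D1 the call of Alox15 was lost without vehicle replicate 5 or 6, with normexp, and with scan date or slide as a fixed or random block, where its value came as close to 0 as -0.0036. The D30 call was lost with normexp and with each day fitted alone (as close to 0 as -0.74), and the D180 call with normexp and with slide as a fixed block (as close to 0 as -0.65). Of the other chitinase family genes, 3 of 10 listed names were on the array and tested, and none was called. The chitinase domain gene Chid1 passed the adjusted p alone at D1 (0.79, adjusted p = 8.33e-06) and D180 (0.50, adjusted p = 0.00211), Ctbs had -0.22, 0.00, and 0.28, and Chi3l3 was well above background on 2 of 36 arrays.

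**Figure D4:**
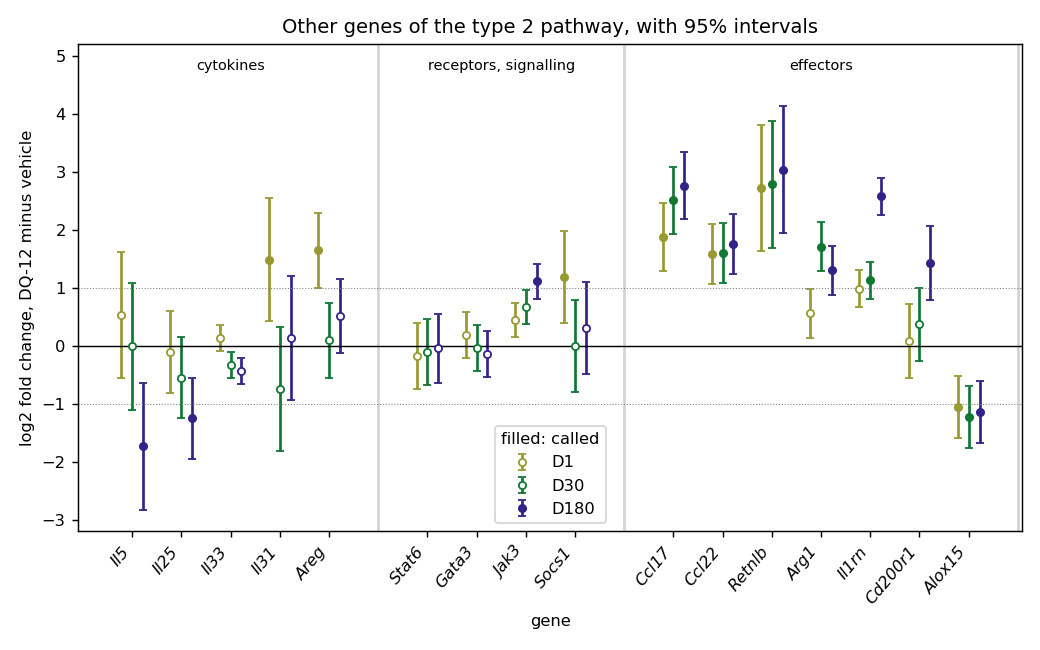
Log2 fold change of DQ-12 over vehicle (y axis) for other genes of the type 2 pathway (x axis), at D1, D30, and D180, with 95% intervals from limma. Filled points are called, and dotted lines mark a 2-fold change. Ccl17, Ccl22, and Retnlb were called at all 3 time points, whereas Il5 and Il25 were called lower at D180 and Stat6 and Gata3 lay near 0.

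Markers of cell types moved beside these genes. The counts of markers called stand beside 3.07%, 1.05%, and 3.63% of all genes at D1, D30, and D180, in either direction. Of 10 neutrophil markers, 1, 2, and 5 were called higher at D1, D30, and D180, and their summed level in DQ-12 rats was 13.52 to 14.73, 14.54 to 15.94, and 15.57 to 16.09. The vehicle rats had 13.35 to 14.32, 13.18 to 14.18, and 13.42 to 14.12. The largest part of these sums was S100a9, with a mean of 15.35 in DQ-12 rats at D180, beside 13.38 for S100a8. The markers called at D180 were S100a9 (log2 FC 2.57), Mmp9 (2.00), S100a8 (1.56), Cxcr2 (1.55), and Csf3r (1.11). Without a call at D180, Mmp8 had 0.78, Camp 0.35, Mpo -0.14, and Fcgr3a -0.22. Elane was well above background on 0 of 36 arrays. Of 12 macrophage markers, 0, 3, and 3 were called higher, with summed levels of 18.34 to 18.60 in DQ-12 rats and 18.27 to 18.30 in vehicle rats at D180. Most of this sum was Lyz2, with a mean of 18.23 in DQ-12 rats at D180, beside 14.05 for Cd68. The log2 FC of Lyz2 was 0.04, so that the sum says little about the other markers. Lyz2 was among the brightest probes, whose values quantile normalization sets by rank (SD 0.00016 in vehicle rats at D180), so that its own change was not resolved. The 3 macrophage markers called were Cd68 (log2 FC 0.14, 1.16, and 1.55), Siglec1 (0.79, 2.04, and 1.96), and Fabp4 (0.88, 1.12, and 2.53). The other macrophage markers differed in direction. By adjusted p alone, 6 of the 12 were higher and 1 lower at D180, beside 16.8% of all genes in either direction. Named after their values were seen, Ctss, C1qa, and C1qb had 0.95, 0.69, and 0.61 at D180 and passed the adjusted p, under 2-fold. Cd163 had -0.89 (adjusted p = 0.00191 in limma, under 2-fold), with all 6 DQ-12 rats below every vehicle rat. Csf1r and Adgre1 had 0.05 and 0.13 at D180. Of 8 eosinophil markers, 6 were tested and 1, Alox15, was called lower at each time point. Epx, encoding eosinophil peroxidase, was well above background on 3 of 36 arrays, and Prg2, encoding a granule protein, had mean signals of 5.84 to 6.34 without a call. The summed level of the eosinophil markers at D180 was 9.16 to 9.50 in DQ-12 rats and 9.55 to 9.85 in vehicle rats. The markers differed in direction at D180. Beside Alox15, Siglec5 had a log2 FC of -0.91 (adjusted p = 4.69e-05 in limma), Epx -0.51, and Ccr3 -0.35. Prg2 had 0.39 and Cebpe 0.47, neither of which passed the adjusted p. Of 10 mast cell and basophil markers tested, 2 were called higher at D180, the mast cell protease genes Tpsab1 (1.57) and Cma1 (1.28). By adjusted p alone, 6 were higher and 1 lower at D180, beside 16.8% of all genes in either direction. The lower marker was Kit (-0.69, adjusted p = 0.000624 in limma), with all 6 DQ-12 rats below every vehicle rat. The summed level of this list at D180 was 13.20 to 13.96 in DQ-12 rats and 13.37 to 14.01 in vehicle rats. The largest part of this sum was Kit, with a mean of 12.93 in vehicle rats at D180, beside 10.83 for Hdc and 10.80 for Mcpt9. The sum therefore says little about the markers that rose. Of 10 T cell markers, none was called at any time point. Of 8 airway secretory cell markers, 1 was called higher and 1 lower at D1, and 1 higher at D30 and D180. Of 8 fibroblast markers, 1 was called higher at D1, and of 10 markers of lung epithelium, none was called. The part of these cell types in the changes of Chi3l1, Chia, and Retnla was not tested.

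The prevailing direction of calls over all genes at D1 depended on the scaling, with 65.8% of called genes higher after quantile normalization and 36.9% after scaling to the 75th percentile. The directions of Chi3l1, Chia, Retnla, and, at D30 and D180, Chit1 were the same under both, and Chia at D1 was called with the latter (1.20, adjusted p = 0.00393 in limma).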

How the data were processed

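The deposited array files hold, per the file headers, Agilent intensity values from Feature Extraction 12.0.1.1, in which the authors' software had corrected the background. The authors' deposited log2 values, used as an alternative, matched log2 intensities scaled to the 75th percentile and then centered probe by probe, with r = 0.99998 and a median deviation of 0.00174 over 45137 probes. Probe coordinates are those of the array files (rn4).

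From the intensities, spots marked as outliers (232 to 596 of 58717 per array) were left out, and spots of a probe were averaged on the log2 scale. Probes above the 95th percentile of 308 negative controls on at least 6 arrays were kept and quantile normalized. The brightest probe represented each gene. A model with 6 group means was fitted in limma 3.58.1 (R 4.3.3). Missing values (210 in 206 genes) were left as missing. Bounds ("at least") set the mean of the brighter group against, per array, the higher of the gene's signal and the dimmest probe called well above background. These bounds hold for this processing only. The number of arrays limits the precision. The summed level of a marker list is the log2 of its summed linear signals.

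The methods of the study report a batch correction but name no batch variable. Scan date and slide therefore did not enter the model, which in this respect differs from that of the study. At D1, D30, and D180, 1 of 5, 3 of 4, and 1 of 10 slides held both groups. Replicate numbers did not pair the rats (r of same-numbered rats -0.13 to 0.22, over 0.1 for 6 of 18 pairs). The 10 genes and all lists were chosen with earlier results of these data known. From the other lists, genes called at any time point were named (up to 6 per list by absolute log2 FC), with Il5, Il33, Gata3, and Stat6, and for each member called at D180 the 3 genes with the highest r. The model was tested on simulated data. Alternatives changed the background correction (normexp, offset 50), scaling, filter, probe summary, model, blocks, thresholds, and the rats included. Figures were drawn with matplotlib 3.10.9.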

Additional observations from a re-analysis of the deposited data

Results flagged for a closer look

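The change of Chia differed between time points by test, being 1.70 larger on the log2 scale at D180 than at D30 and 2.81 larger at D180 than at D1. Among 60 groups of 6 rats (10 genes in 6 groups), 1 held a rat far from the others. In the vehicle group at D180, replicate 5 had an Il4 signal of 3.00, next to 3.67 in the nearest rat, while the highest was 3.83. Chance gives such a rat in about 1 of 20 groups, and Il4 was not well above background in most rats.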

How the results depend on the processing

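Over the settings other than a left-out rat, the calls of Chi3l1 at every time point and of Chia at D30 and D180 were kept in all of them. The counts of genes called changed as follows. With scan date as a fixed block, 1 gene was called at D1 and 0 genes differed in their change between D30 and D180 or between D1 and D180. With slide as a fixed block, the number that differed was likewise 0 and 0, and 2 genes were called at D1 (Chi3l1 and Chia) and 2 at D180, without Retnla. With 75th percentile scaling, the deposited values, or scan date or slide as a random block, 3 genes were called at D1, Chia among them. With 1 rat left out, 0 to 1 genes differed between D30 and D180. With the replicate block, 2, 3, and 3 genes were called at D1, D30, and D180, as without it, and it changed no other call among the 10 genes. It ended the call of Il31 at D1.

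Signs turned for genes that were not called. For Il13 at D1 the values were -0.22 with 75th percentile scaling, -0.22 with the deposited values, and -0.51, -0.25, and -0.053 with scan date as a fixed block, slide as a fixed block, and scan date as a random block. For Il4 at D1 they were 0.48, 0.035, and 0.036 with scan date as a fixed block, as a random block, and slide as a random block. For Il4r, scan date and slide as fixed blocks gave 0.24 and 0.21 at D1, and slide gave 0.079 at D180. For Il13ra2 at D30 the values were -0.24 and -0.38 with scan date and slide as fixed blocks and -0.070 and -0.12 as random blocks. For Il1rl1, the median over probes gave 0.058 at D1 and 0.019 at D30, and slide as a fixed block gave 0.0011 at D30. With 1 rat left out, signs turned within -0.41 to 0.11 (Il4 at D1), -0.23 to 0.44 (Il13 at D1), -0.51 to 0.038 (Il4 at D30), -0.062 to 0.31 (Il13ra2 at D30), -0.20 to 0.044 (Il4r at D180), and -0.056 to 0.088 (Chit1 at D1). Chia at D1 was called without vehicle replicate 1, 5, or 6 or DQ-12 replicate 6 (1.02, 1.06, 1.04, and 1.05). The causes were not tested. Dim signals limit Il4 and Il13 most. Of the pathway genes, the alternatives kept 13 of 13 calls for Ccl17 at D30 and D180, Ccl22 at D30, Arg1 at D30, and Il1rn at D30 and D180. Normexp or a fixed block ended at least 1 call of each other pathway gene named as called and tried under the alternatives.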
